A study of Mus musculus with 8 samples.

Results

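In a peripheral nerve each myelinating Schwann cell is held to its axon, to its own outer wrapping and to its neighbours by a small set of membrane proteins. Adhesion proteins of the internode face the axon along the sheath, dystroglycan-linked proteins tie the outer surface to the basal lamina, claudins and connexins seal and bridge the layers of a single sheath, and a further set gathers sodium channels at the node of Ranvier. Several of these genes are known from inherited neuropathies, among them GJB1 in X-linked and PRX in recessive Charcot-Marie-Tooth disease. Here 10 such genes were followed in sciatic nerve: Mag, Cadm1, Cadm4 and Mpp6 of the internode, Prx and Drp2 of the outer surface, Gjb1 and Cldn19 of the junctions, and Nfasc and Gldn of the node. They were found by their gene name in the array's design, and 12 of the array's 55681 probes carry one of these names. All 10 genes were among the 15343 gene names that could be compared.

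The nerves came from male mice aged 60 days. One group, here WT, was wild-type and carried no transgene. The other, SOD1G93A, carried a mutant human SOD1 transgene, a widely used model of amyotrophic lateral sclerosis in which the transgene is active in most cell types and not in motor neurons alone. RNA of 4 nerve samples per group, described as biological replicates, was labelled with Cy3. The Cy5 channel of all 8 arrays held the same reference, made by pooling RNA from the heart, liver and kidney of neonatal mice of both genotypes. Values below are log2 ratios of Cy3 to Cy5, so 1 unit is a doubling of nerve signal relative to the reference. The RNA came from nerve tissue and not from sorted cells, and fewer cells of a type and less RNA per cell cannot be told apart.

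All 12 probes are 60 bases long, were printed as 1 spot each, and were well above background in both dyes on all 8 arrays, with no saturated spot. Their GC content ran from 35.0% to 55.0%. The Cadm1 probe and the dimmer of the 2 Drp2 probes are shown because their last bases are a stop codon. The Cadm1 probe (chr9:47658414-47658473 on mm9, plus strand) and the dimmer Drp2 probe (chrX:130987180-130987239 on mm9, plus strand) each run in an open frame up to that stop codon, in capitals. Whether this is the frame of the protein was not checked.
Cadm1: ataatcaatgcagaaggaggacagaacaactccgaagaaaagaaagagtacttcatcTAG
Drp2: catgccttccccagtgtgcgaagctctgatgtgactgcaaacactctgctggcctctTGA
Of the 12 probes, 5 hold AATAAA or ATTAAA, the hexamers that direct polyadenylation. These 5 are the probes of Gjb1, Gldn, Mag and Prx and 1 of the 2 Mpp6 probes. A single probe reads 60 bases, so splice forms that differ elsewhere in a message were not told apart. Whether the Nfasc probe reads the glial form, the axonal form or both was not checked.

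Most of these genes gave far more signal in nerve than in the organ pool. In 8 of 10 the log2 ratio was above 1 on every array, a limit that 8.97% of all genes compared passed. The exceptions were Cadm1 and Mpp6. The ratio depends on the reference as much as on the nerve, the pool is a single RNA and the dyes were never swapped, so these ratios are given as a description and without a test.

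**Figure D1:**
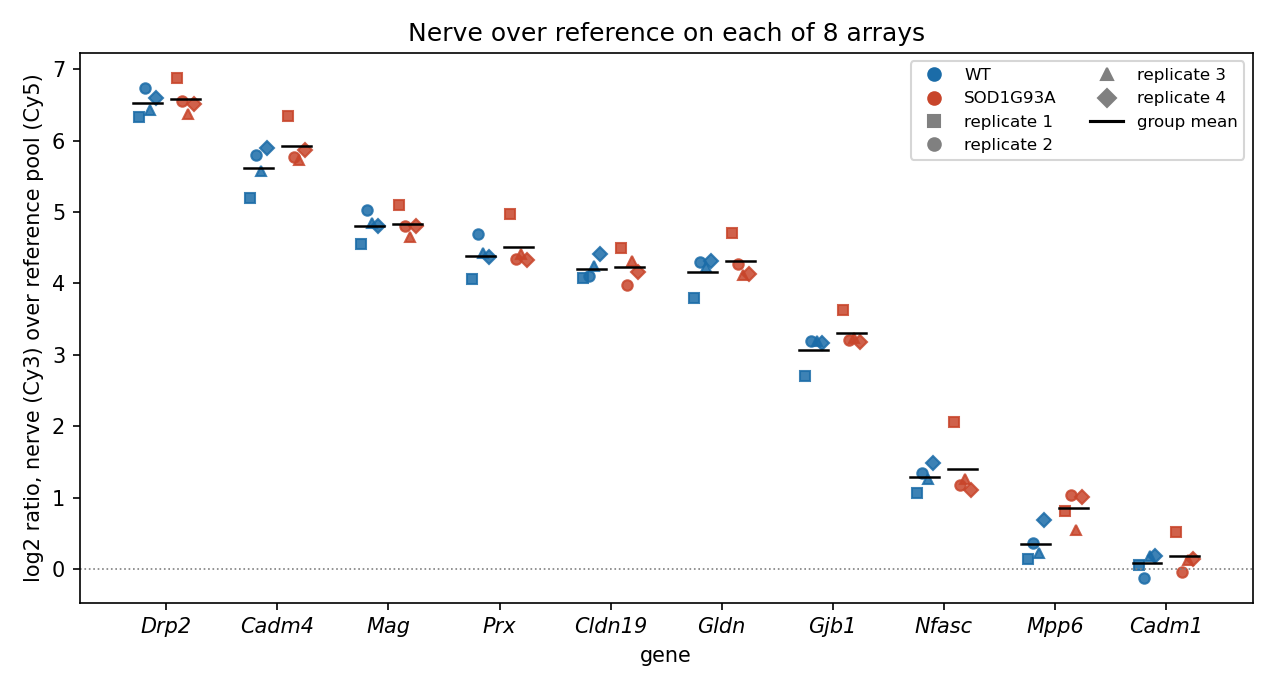
Log2 ratio of nerve (Cy3) over the reference pool (Cy5) for each of the 10 genes on the 8 arrays. Points are arrays, coloured by genotype and shaped by replicate, and bars are group means of 4 arrays. The genotypes overlap in every gene, WT replicate 1 (blue square) is lowest in 8 genes and SOD1G93A replicate 1 (red square) is highest in 9.

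The question put to these arrays was whether transcripts of the nerve differ between SOD1G93A and wild-type mice. None of the 10 genes was called, where a call is an adjusted p under 0.05 from limma with Benjamini-Hochberg adjustment over all genes, while 0.163% of all genes were. Probe by probe, 0 of 12 were called against 0.171% of all probes kept. At an unadjusted p under 0.05, 1 of the 10 passed, Mpp6, as did 1750 of the 15343. By the exact permutation test over the 8 arrays, 2-sided, 0 of the 10 reached the smallest p possible with 4 against 4, which is 0.0286. In none of the 10 were the arrays of one genotype all above those of the other, which was so in 8.0% of all genes.

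At the internode, Mag encodes myelin-associated glycoprotein, a sialic acid-binding lectin of the innermost Schwann cell membrane that faces the axon. Its log2 ratio was 4.56, 5.03, 4.85 and 4.81 in WT and 5.10, 4.81, 4.66 and 4.80 in SOD1G93A, in the order of replicates 1 to 4. The lowest array was WT and the highest SOD1G93A, both replicate 1, while among replicates 2 to 4 the WT values of 4.81 to 5.03 lay just above the SOD1G93A values of 4.66 to 4.81. In WT nerve the Mag signal was 28.1-fold that of the reference. The reference was dim, with 75 to 114 units of background-subtracted Cy5 intensity. With Agilent's own processed signals the mean ratio over the 8 arrays moved from 4.83 to 5.42. The difference, SOD1G93A minus WT, was 0.03 ± 0.13 (SE, limma adjusted p = 0.951), with a 95% interval from -0.26 to 0.31, that is from 0.837-fold to 1.24-fold.

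The cell adhesion molecules Cadm4 and Cadm1 belong to the nectin-like family. Cadm4 sits on the Schwann cell and binds Cadm3 and Cadm2 on the axon, which lines up sheath and axon along the internode. Cadm4 gave 5.20, 5.80, 5.58 and 5.90 in WT and 6.35, 5.77, 5.73 and 5.87 in SOD1G93A. One SOD1G93A array, replicate 1, stood above all others, 1 WT array, replicate 1, stood below, and the remaining 6 lay between 5.58 and 5.90. The difference was 0.31 ± 0.18 (SE, limma adjusted p = 0.549), with an interval from -0.10 to 0.72. Cadm4 was 49.2-fold above the reference in WT nerve, over a Cy5 signal of 141 to 197 units after background subtraction. Among the 10 only Drp2 had a higher ratio, and that by its brighter probe alone.

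Cadm1, which is expressed in many epithelia and neurons as well as in glia, gave a different profile. Its values were 0.06, -0.12, 0.18 and 0.19 in WT and 0.52, -0.05, 0.12 and 0.14 in SOD1G93A, so nerve and reference were nearly level at 1.06-fold. The genotypes overlapped, with 1 SOD1G93A array above the rest. The difference was 0.11 ± 0.13 (SE, limma adjusted p = 0.779), with an interval from -0.18 to 0.40. Its ratio stood at percentile 53.4 of all genes and that of Cadm4 at percentile 99.95. The Cadm1 probe was dim in both dyes, with 203 to 310 units of background-subtracted intensity in Cy3 and 103 to 122 in Cy5.

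Mpp6 is a membrane-associated guanylate kinase, a scaffold known in Schwann cells to bind Cadm4 and to work with cytoskeletal adaptors of the Epb41 family. Its ratio was 0.14, 0.36, 0.22 and 0.68 in WT and 0.81, 1.03, 0.55 and 1.01 in SOD1G93A. Of the 4 SOD1G93A arrays, 3 were above every WT array, and the fourth, replicate 3 at 0.55, was below WT replicate 4 at 0.68. The means were 0.35 ± 0.24 in WT and 0.85 ± 0.22 in SOD1G93A (SD, n = 4 each). SOD1G93A exceeded WT by 0.50 ± 0.15 (SE), which had a 95% interval from 0.17 to 0.83, or 1.12-fold to 1.77-fold. Its unadjusted p of 0.00748 placed it 459th of 15343 genes, and it was not called (limma adjusted p = 0.250). The exact permutation test over the 8 arrays, 2-sided, gave 0.0571.

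The second Mpp6 probe reads nearly the same place. The brighter probe lies at chr6:50148295-50148354 and the other at chr6:50148305-50148364 on mm9, both on the plus strand, and they share 50 of their 60 bases. The second probe gave 0.12, 0.34, 0.24 and 0.53 in WT and 0.81, 0.83, 0.50 and 0.87 in SOD1G93A. Here too a single SOD1G93A array, replicate 3, fell below the highest WT array. Its difference was 0.44 ± 0.12 (SE, limma adjusted p = 0.209 over all probes kept). Since both probes share most of their bases and the same RNA, the second is a repeat spot of the first and no separate evidence.

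At the outer surface, Prx encodes periaxin, a PDZ-domain protein that links the Schwann cell to dystroglycan. Its ratio was 4.06, 4.69, 4.43 and 4.37 in WT and 4.97, 4.35, 4.41 and 4.34 in SOD1G93A. Replicates 2 to 4 of SOD1G93A lay within 4.34 to 4.41, below 2 of the 4 WT arrays, while replicate 1 exceeded every WT array. The difference was 0.13 ± 0.17 (SE, limma adjusted p = 0.802), with an interval from -0.26 to 0.52. Nerve was 20.9-fold above the reference in WT, with 92186 to 114310 units of Cy3 intensity after background subtraction and 3978 to 4684 units of Cy5.

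Drp2, dystrophin-related protein 2, joins periaxin and dystroglycan in the patches where the outer Schwann cell membrane is pressed against the sheath. Its brighter probe (chrX:130987814-130987873 on mm9, plus strand) gave 6.34, 6.74, 6.43 and 6.60 in WT and 6.88, 6.55, 6.37 and 6.52 in SOD1G93A. Both groups spread over the same range apart from SOD1G93A replicate 1. The difference was 0.06 ± 0.13 (SE, limma adjusted p = 0.892), with an interval from -0.24 to 0.35. By this probe nerve was 92.0-fold over the reference in WT.

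The size of the Drp2 ratio rests on a dim reference. The brighter probe had 45 to 91 units of background-subtracted Cy5 intensity against 11100 to 18269 of Cy3, and the mean ratio over the 8 arrays moved from 6.55 to 7.47 when Agilent's own processed signals were used. The second Drp2 probe, whose sequence is printed above and which shares no base with the first, gave a mean of 4.39, which is below Cadm4, Mag and Prx. Its reference was dimmer still, with 29 to 73 units of Cy5 against 2059 to 4058 of Cy3. Its level is thus no firmer than that of the first probe. The gap between both probes was 2.16 ± 0.08 (SD, n = 8 arrays) and between 2.04 and 2.26 on every array. The second probe's genotype difference was 0.04 ± 0.11 (SE, limma adjusted p = 0.902 over all probes kept). So the probes disagreed on how far nerve exceeds the reference and lay close together in the genotype difference.

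Among the junction genes, Gjb1 encodes a connexin that forms gap junctions between the layers of a single Schwann cell at its paranodes and incisures. It is also the main connexin of liver, one of the organs of the reference pool. Its ratio was 2.70, 3.19, 3.19 and 3.17 in WT and 3.62, 3.20, 3.23 and 3.18 in SOD1G93A. The 6 arrays of replicates 2 to 4 all lay between 3.17 and 3.23, with WT replicate 1 far below and SOD1G93A replicate 1 far above. The difference was 0.25 ± 0.14 (SE, limma adjusted p = 0.542), with an interval from -0.07 to 0.57. Nerve exceeded the reference 8.35-fold in WT, over a Cy5 signal of 574 to 819 units.

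Gjb1 is transcribed from more than one start, and the one nearest the coding exon is known as the start used in Schwann cells, where the factors SOX10 and EGR2 bind. Of the 10 genes, 8 were found in the RefSeq promoter table for GRCm38.p6, with 16 starts, and Drp2 and Cadm1 were not. The 250 bases before each start were searched on both strands for ACAAAG, a core of SOX sites, and GTGGGCG, a core of EGR sites, letters picked after the sequences had been seen. ACAAAG was present in 5 of the 16 and in 16.5% of all 32851 promoters, and GTGGGCG in 5 of the 16 and in 7.0% of all. Some starts overlap and share a match, 2 of Mag for ACAAAG and 2 of Cldn19 for GTGGGCG, and by gene the counts are 3 and 4 of 8. A gene with several starts has more chances of a match. The shares of all promoters are counted by start, so they cannot be set against the counts by gene. Only 1 of the 16 held both, as did 0.76% of all promoters, and it is the Gjb1 start farthest downstream (chrX:101383482-101383731 on GRCm38.p6, plus strand). Its sequence is shown with both matches in capitals, GTGGGCG 113 bases and ACAAAG 57 bases before the start.
Gjb1: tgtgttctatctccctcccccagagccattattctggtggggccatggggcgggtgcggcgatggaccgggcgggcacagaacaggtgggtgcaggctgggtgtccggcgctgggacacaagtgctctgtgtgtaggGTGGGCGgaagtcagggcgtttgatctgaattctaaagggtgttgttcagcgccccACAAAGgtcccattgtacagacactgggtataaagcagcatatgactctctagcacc
A match of letters is a description and not a binding site. The Gjb1 probe (chrX:98580902-98580961 on mm9, plus strand) holds a polyadenylation hexamer, and which start its messages came from was not measured. The factors themselves were measured on these arrays. Egr2 was at 5.30 ± 0.04 in WT and 4.84 ± 0.32 in SOD1G93A (SD, n = 4 each). Its groups did not overlap, as was so in 8.0% of all genes. The Egr2 difference of -0.46 ± 0.15 (SE, limma adjusted p = 0.286) was not called, and a link to Gjb1 was not tested. Sox10 differed by 0.19 ± 0.18 (SE, limma adjusted p = 0.718).

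Cldn19 encodes a claudin of Schwann cell tight junctions at incisures and paranodes, and it is also known from kidney. Its probe lies at chr4:118929768-118929827 on mm9, plus strand. The ratio was 4.07, 4.11, 4.25 and 4.41 in WT and 4.50, 3.98, 4.31 and 4.16 in SOD1G93A. SOD1G93A held both the highest and the lowest of the 8 values. The difference was 0.03 ± 0.13 (SE, limma adjusted p = 0.951), with an interval from -0.26 to 0.31. Nerve was 18.5-fold above the reference in WT, over a dim Cy5 signal of 85 to 164 units. With Agilent's own processed signals the mean ratio over the 8 arrays moved from 4.22 to 4.68.

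At the node, Gldn encodes gliomedin, which Schwann cells place at the tips of their microvilli, where it binds neurofascin on the axon and gathers sodium channels. Its ratio was 3.79, 4.30, 4.23 and 4.32 in WT and 4.71, 4.27, 4.13 and 4.14 in SOD1G93A. Without replicate 1 the SOD1G93A values of 4.13 to 4.27 overlapped the WT values of 4.23 to 4.32 at their upper end. The difference was 0.15 ± 0.16 (SE, limma adjusted p = 0.743), with an interval from -0.21 to 0.51. Nerve was 17.9-fold above the reference in WT, over a Cy5 signal of 144 to 303 units.

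Nfasc encodes neurofascin, whose glial form binds the axonal contactin complex at the paranode and whose neuronal form lies at the node itself. Axonal messages are made in cell bodies outside the nerve. Which of the forms the probe (chr1:134466568-134466627 on mm9, minus strand) reads was not checked. The ratio was 1.06, 1.34, 1.26 and 1.49 in WT and 2.06, 1.17, 1.26 and 1.10 in SOD1G93A. SOD1G93A replicate 1 was far above all other arrays, and the remaining 3 of that group sat in the lower part of the WT range. The SD was 0.45 in SOD1G93A and 0.18 in WT, and the difference was 0.11 ± 0.20 (SE, limma adjusted p = 0.862), with the widest interval of the 10 genes, from -0.35 to 0.57. Nerve was 2.45-fold above the reference in WT.

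In all 10 genes the mean was higher in SOD1G93A, against 45.3% of all genes compared, though under other scalings this held in 9 genes (median centring), 8 (Cy3 alone) or 7 (scale normalization). The median difference was 0.12 over the 10 and -0.02 over all genes. This shared sign went with 2 arrays. SOD1G93A replicate 1 was the highest of the 8 arrays in 9 of the 10 genes, against 24.5% of all genes with a value on every array, and Mpp6, highest in SOD1G93A replicate 2, was the exception. WT replicate 1 was the lowest in 8 of the 10, against 17.6% of all genes, the exceptions being Cadm1 and Cldn19. Averaged over the 10 genes, the deviation from each gene's mean was -0.33 in WT replicate 1 and 0.42 in SOD1G93A replicate 1, and between -0.07 and 0.06 on the other 6 arrays.

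**Figure D2:**
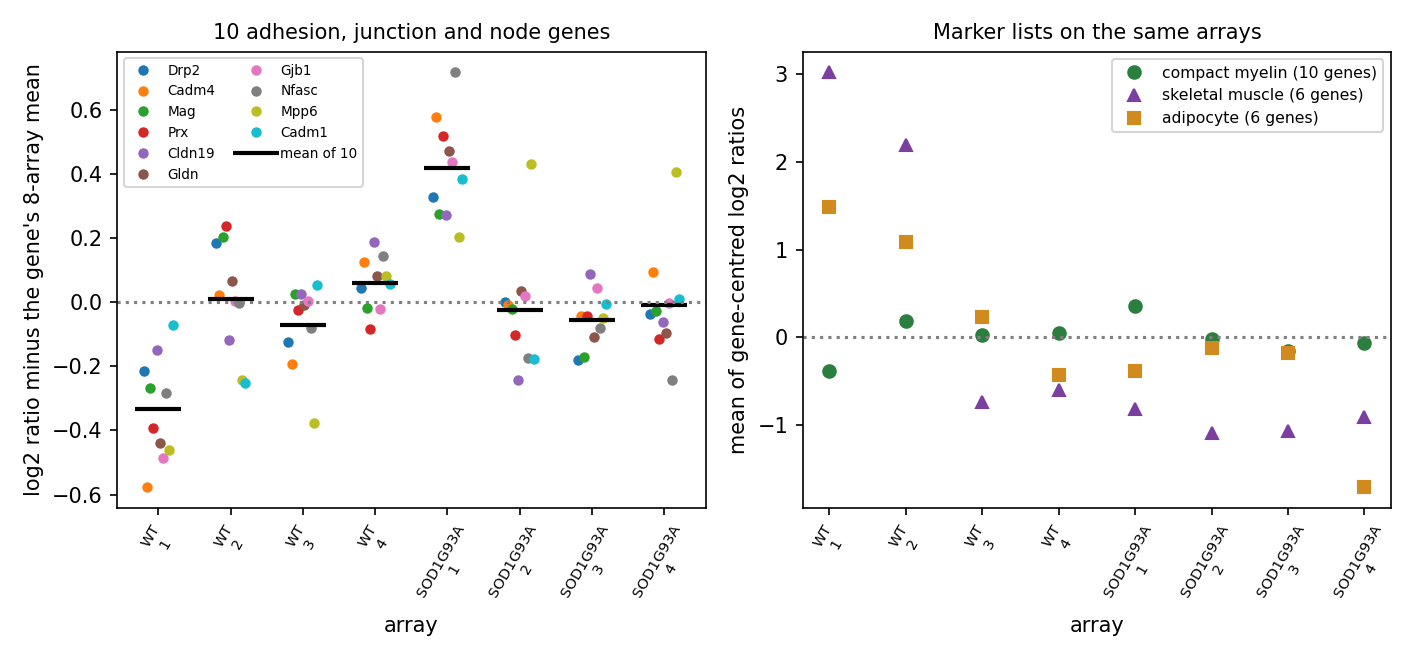
Left, deviation of each of the 10 genes from its own 8-array mean (log2 ratio), by array, with the mean of the 10 as a bar, which is -0.33 in WT replicate 1 and 0.42 in SOD1G93A replicate 1. Right, mean of gene-centred log2 ratios of 3 marker lists on the same arrays: the compact myelin list is lowest in WT replicate 1 and highest in SOD1G93A replicate 1, and the skeletal muscle and adipocyte lists are high in WT replicates 1 and 2.

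Among replicates 2 to 4, a comparison of 6 arrays, 3 of the 10 genes were higher in SOD1G93A, against 47.7% of all genes. The arrays left out were the highest SOD1G93A and the lowest WT array in most of the 10. A fall of most differences was thus fixed by the choice of arrays, also where either was left out alone. Mpp6 differed by 0.44 ± 0.17 (SE, limma adjusted p = 0.242), Cadm4 by 0.03 ± 0.10 (SE) and Gjb1 by 0.02 ± 0.06 (SE). The difference was negative in the other 7. It was -0.14 ± 0.09 (SE) for Mag, -0.19 ± 0.08 for Nfasc, -0.13 ± 0.10 for Prx, -0.11 ± 0.10 for Drp2, -0.10 ± 0.11 for Cldn19, -0.10 ± 0.07 for Gldn and -0.01 ± 0.11 for Cadm1. None of the 10 was called among these 6 arrays, where 1.53% of all genes were. Mag was the only one in which the groups of 3 did not overlap, as was so in 24.1% of all genes (limma adjusted p = 0.431). Leaving out SOD1G93A replicate 1 alone brought the median difference of the 10 to -0.01, with 4 of them higher. Leaving out WT replicate 1 alone left 7 of the 10 higher.

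**Figure D3:**
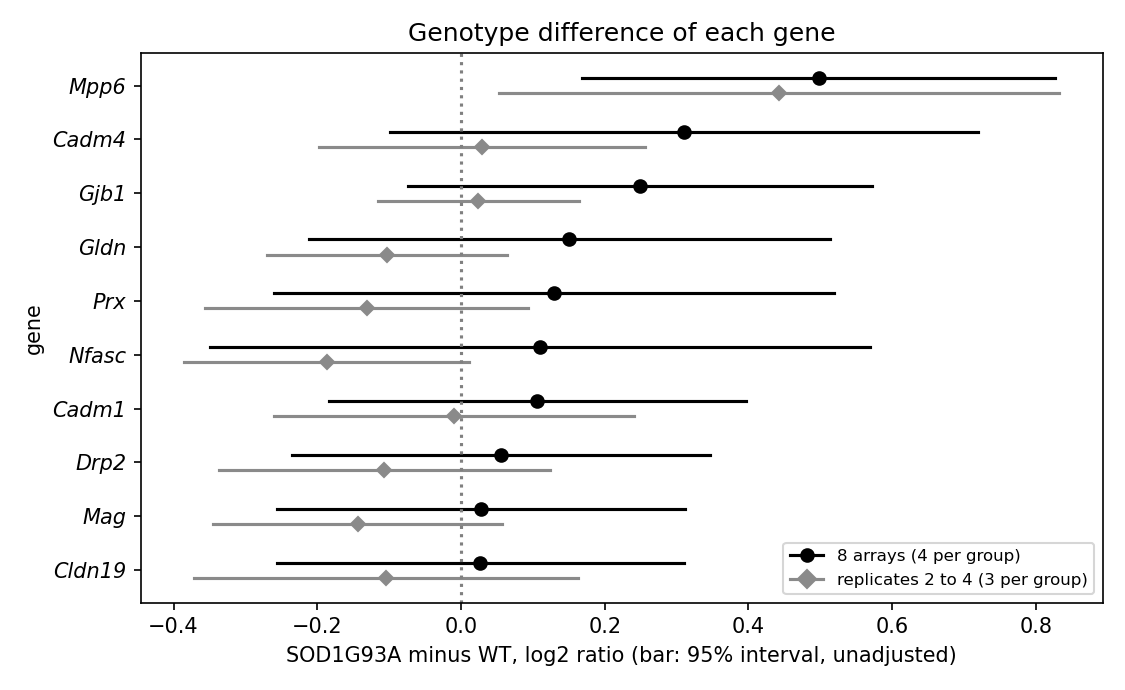
Difference SOD1G93A minus WT (log2 ratio) of each gene with its unadjusted 95% interval, over all 8 arrays (black circles) and over replicates 2 to 4 (grey diamonds). With 8 arrays the interval of Mpp6, from 0.17 to 0.83, is the only one that leaves out 0, and with replicates 2 to 4 the points of 7 genes move below 0. Replicate 1 held the highest SOD1G93A and the lowest WT array in most genes, so leaving it out had to lower most differences.

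The same arrays stood apart in other ways. The compact myelin list (10 genes, among them Mbp and Pmp22, all measured) had its lowest mean, -0.39, in WT replicate 1 and its highest, 0.35, in SOD1G93A replicate 1, against -0.15 to 0.19 elsewhere. Despite its name the list also holds Cnp and the lipid enzyme genes Ugt8a, Fa2h and Gal3st1, so it does not measure compact myelin proteins alone. Of its genes, 8 were higher in SOD1G93A and 0 were called, with a median difference of 0.09. The median Cy3 value of the genes compared, taken after background correction and normalization, was lowest in SOD1G93A replicate 1, at 397. It was highest in WT replicate 1, at 597.2, the others lying between 491.2 and 532.7. This is not the scanner's raw intensity. The share of spots that cleared background in Cy3 was 35.52% in SOD1G93A replicate 1 and 41.7% in WT replicate 1. On the other arrays it was 35.5% to 38.6%. The skeletal muscle list (6 of 6 genes measured, among them Acta1 and Ckm) averaged 3.02 and 2.19 in WT replicates 1 and 2, -0.74 and -0.60 in WT replicates 3 and 4, and -1.09 to -0.81 in SOD1G93A. The adipocyte list (6 of 6 measured) ranged from -0.43 to 1.48 in WT and from -1.70 to -0.12 in SOD1G93A, and the smooth muscle list (4 of 4 measured) from -0.56 to 1.73 and from -0.92 to -0.49. In WT replicates 1 and 2 the adipocyte list averaged 1.48 and 1.08, and the smooth muscle list 1.73 and 1.36. The mean deviation of the 10 genes was -0.33 and 0.01 on these arrays. The macrophage list (6 of 6 measured) was higher in SOD1G93A in 6 of 6 genes, with 0 called and a median difference of 0.62. It averaged -0.52 to -0.22 in WT, -0.29 in SOD1G93A replicate 1, near the WT arrays, and 0.43 to 0.74 in the other 3 SOD1G93A arrays. The part of intensity and of these other tissues and cells in the members' differences was not tested. All 8 arrays lay on 1 slide, and the first number of each array's slide position followed its genotype, so an effect of position cannot be told apart from one of genotype.

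Of 6 Schwann cell identity genes, Sox10, S100b, Egr2, Dhh and Pou3f1 had log2 ratios of 3.23, 4.66, 5.30, 5.33 and 4.17 in WT. The other, Erbb3, was at 0.29 and cleared background on 2 arrays per group. Of oligodendrocyte genes, which would accompany central myelin, Mobp, Hapln2, Olig2 and Tmem10 (named Opalin on the array) were not well above background on enough arrays to be compared, and Mog cleared background on only 2 arrays per group. Of neuronal genes, Syt1 and Rbfox3 did not pass the same filter, and Nefl and Snap25 gave 1.32 and 0.28 in WT. The repair Schwann cell list had 7 of its 8 genes measured. All 7 were higher in SOD1G93A, against 45.3% of all genes, and 2 of them were called, against 0.163%. The genes not called were uneven: Gap43 and Ncam1 differed by 0.02 and 0.10, and Sox2, Ngfr and Atf3 by 0.40, 0.70 and 0.84. Jun, which cleared background on all 8 arrays, differed by 1.11. Gdnf, the other call, cleared background on the 4 SOD1G93A arrays and on 0 of the 4 WT arrays, so it was kept only through the group where it is high and its call rests on WT signal at background.

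The partners of the 10 genes were taken from lists of the same 4 compartments, with 47 of 52 genes measured. Of the 47, 30 were higher in SOD1G93A, against 45.3% of all genes, and 0 were called, against 0.163%. An unadjusted p under 0.05 (limma) was found in 5 of the 47 and in 1750 of all 15343 genes. The median difference of the 47 was 0.03. At the internode all 8 were measured and 7 were higher. The mean deviation of these 8 was -0.29 in WT replicate 1 and 0.40 in SOD1G93A replicate 1, against -0.06 to 0.05 on the other arrays. The 10 genes stood apart on the same arrays. The 2 internode partners with the smallest p were Lgi4, a ligand secreted by Schwann cells that is needed for myelination, and its receptor Adam22. Lgi4 went from 4.86 ± 0.31 in WT to 5.21 ± 0.16 in SOD1G93A (SD, n = 4 each), a difference of 0.35 ± 0.15 (SE, limma adjusted p = 0.438). Adam22 differed by 0.15 ± 0.08 (SE, limma adjusted p = 0.507). Cadm3 and Cadm2, the binding partners of Cadm4, had ratios of 3.92 ± 0.28 and 1.89 ± 0.27 in WT (SD, n = 4) and differed by 0.20 and 0.05. Epb41l2, the adaptor that Mpp6 works with, was at 2.75 ± 0.18 in WT (SD, n = 4) and differed by 0.09 ± 0.16 (SE, limma adjusted p = 0.856).

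At the outer surface all 12 listed partners were measured and 7 were higher. Lamc1, the laminin gamma 1 chain of the basal lamina, was the one of the 47 partners whose groups did not overlap, against 8.0% of all genes, at -0.11 ± 0.05 in WT and -0.41 ± 0.10 in SOD1G93A (SD, n = 4 each). The groups differed by -0.31 ± 0.08 (SE, limma adjusted p = 0.186), which is no call. Lama2, the alpha 2 chain of the Schwann cell laminin, differed by -0.33 ± 0.16 (SE, limma adjusted p = 0.477). Dag1, the dystroglycan that Prx and Drp2 bind, differed by 0.08 ± 0.17 (SE, limma adjusted p = 0.891). Laminins are also made by muscle and vessels, and the endothelial list was lower in SOD1G93A in 6 of 6 genes, with 0 called and a median of -0.54, whose part in the laminin values was not tested.

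Of the junction partners all 9 were measured and 3 were higher. Cldn5, the claudin of endothelium and also of incisures, differed by -0.54 ± 0.24 (SE, limma adjusted p = 0.438). Gjc3, the other connexin of the list that is known in myelinating glia, had a ratio of 2.70 ± 0.49 in WT (SD, n = 4) and differed by 0.14 ± 0.22 (SE, limma adjusted p = 0.835).

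At the node 18 of 23 partners were measured and 13 were higher. Kcna1, a juxtaparanodal potassium channel, differed by 0.30 ± 0.13 (SE, limma adjusted p = 0.416) and was at 6.30 ± 0.25 in SOD1G93A (SD, n = 4). Epb41l3, an adaptor of the paranodal membrane, differed by 0.21 ± 0.09 (SE, limma adjusted p = 0.426). Cntn1, contactin of the paranodal complex that glial neurofascin binds, differed by 0.47 ± 0.22 (SE, limma adjusted p = 0.463). Cntnap1, Cntn2, Cntnap2 and Sptbn4 are on the array and did not pass the filter on dim probes.

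**Figure D4:**
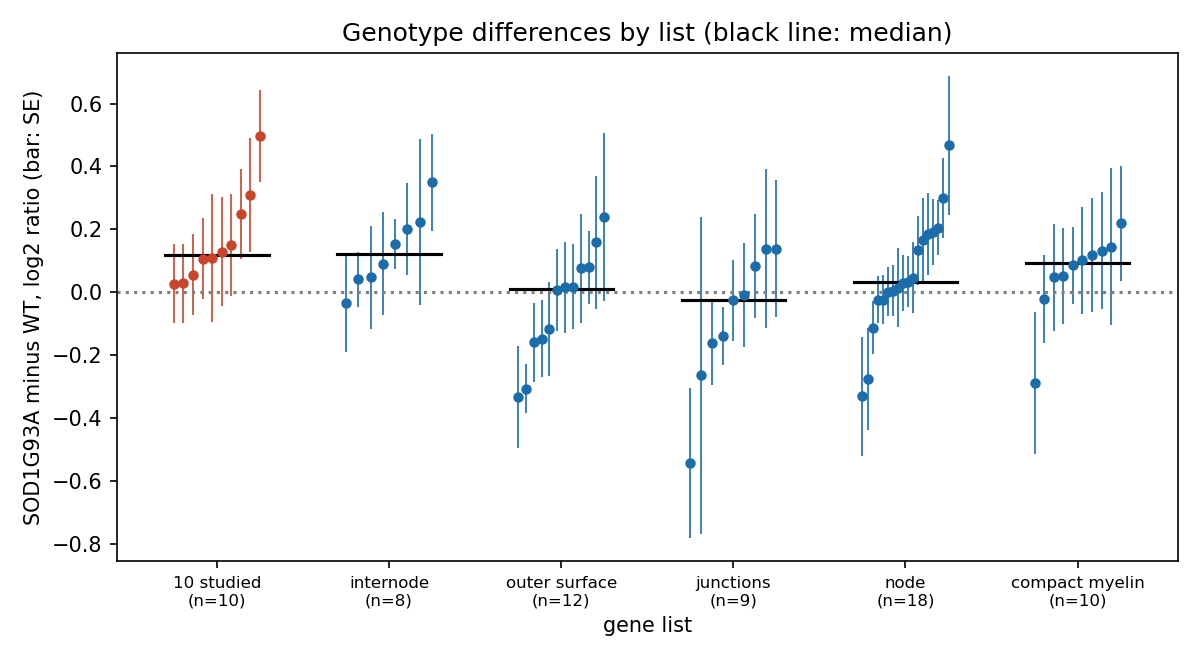
Difference SOD1G93A minus WT (log2 ratio, bar: SE) of every measured gene in the 10 studied genes, the 4 lists of partners and the compact myelin list, sorted within each list, with the median as a black line. The medians lie between -0.03 and 0.12 and no gene was called. Single genes span 0 in every list but the 10, whose values run from 0.03 to 0.50. Within the 10, the SE bars of Mag, Cadm1, Prx, Drp2, Cldn19, Nfasc and Gldn cross 0. With scale normalization 7 of the 10 were higher, and with array weights 3.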

How the data were processed

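Per the file headers, the deposited scanner output gives linear intensity and local background for each dye and spot, with flags, probe names and mm9 positions. It was written by Agilent Feature Extraction 11.5.1.1, while version 11.0.1.1 and limma are listed in the submitters' processing notes. The authors' log10 ratios in the deposited series matrix equalled the scanner's own (largest difference 0) and were used as an alternative, with the sign turned to nerve over reference. Mean intensity was corrected with the median background by normexp (offset 50) and loess within arrays in limma 3.58.1 (R 4.3.3, with data.table, version 1.17.8). Flagged outliers and control spots were left out. A probe was kept if well above background in nerve on 4 or more of the 8 arrays (19838 of 55681), and each gene name took its brightest probe. Of 59305 spots, 35.5% to 41.7% per array cleared background in Cy3, and the number of arrays limits the precision. Genotypes were compared across all genes with lmFit and eBayes, 2-sided. The procedure was tested on simulated data. The members, lists and alternatives were chosen with earlier results of these data known. All members are named, and from each partner list the called genes or else the 2 with the smallest p. One junction partner so chosen is not reported here. Listed symbols that no probe carries (4) were found under older or newer names in the RefSeq table (GRCm38.p6). Other partners and markers were named for their role, with their values already seen.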

Additional observations from a re-analysis of the deposited data

Results flagged for a closer look

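In 4 of 20 groups of 4 arrays (10 genes in both genotypes), a single array lay farther from the other 3 than Dixon's 95% limit. Chance alone gives this in about 1 group in 20, and the groups share the same arrays. Prx in SOD1G93A replicate 1 had a log2 ratio of 4.97, the next array being at 4.41. Gjb1 was 2.70 in WT replicate 1 against 3.17 for the next, and 3.62 in SOD1G93A replicate 1 against 3.23. Nfasc in SOD1G93A replicate 1 was 2.06 against 1.26.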

How the results depend on the processing

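Across 24 alternatives per gene, none of the 10 genes was called, and the smallest adjusted p (limma) was 0.124, for Mpp6 with array weights. Mpp6 stayed positive throughout (0.41 to 0.61), as did Cadm4 (0.03 to 0.40) and Gjb1 (0.02 to 0.40). The other 7 turned negative in places. With median centring Cldn19 was -0.000642. With scale normalization Mag, Drp2 and Cldn19 were -0.0456, -0.0471 and -0.0411. With Cy3 alone Mag and Drp2 were -0.0124 and -0.0174. With array weights, which gave SOD1G93A replicate 1 a weight of 0.169, Mag, Cadm1, Prx, Drp2, Cldn19, Nfasc and Gldn were -0.0954, -0.001681, -0.0484, -0.0506, -0.0554, -0.104 and -0.0305, and with replicates 2 to 4 they were -0.144, -0.00989, -0.131, -0.107, -0.105, -0.187 and -0.103. Leaving out 1 array at a time gave -0.0589 to 0.100 for Mag, -0.0042 to 0.183 for Cadm1, -0.0223 to 0.230 for Prx, -0.0442 to 0.126 for Drp2, -0.0594 to 0.113 for Cldn19 and -0.111 to 0.209 for Nfasc, each lowest without SOD1G93A replicate 1. With Agilent's processed signals some differences rose and others fell. Drp2 went from 0.06 to 0.25, Cadm1 from 0.11 to 0.23, Cldn19 from 0.03 to 0.14 and Mag from 0.03 to 0.09. Gldn went from 0.15 to 0.18 and Gjb1 from 0.2485 to 0.253. Cadm4 fell from 0.31 to 0.28, Mpp6 from 0.50 to 0.47, Prx from 0.13 to 0.10 and Nfasc from 0.11 to 0.09. The median of the 10 went from 0.12 to 0.21. That median was -0.04 with array weights and -0.10 with replicates 2 to 4. The count of all genes called was 25 and moved to 7 with Agilent's processed signals, 7 with the series matrix (the same source), 1 with median centring, 38 with Cy3 alone, 16 with no filter on dim probes, 421 with array weights and 234 with replicates 2 to 4, and ran from 3 to 180 with 1 array left out, 180 being without SOD1G93A replicate 1. With the replicate number as a replicate block it was 1. Same-numbered arrays did not deviate together (correlations -0.16, 0.04, -0.11 and 0.10), so the numbers were not taken as pairs, and the block changed no call of the 10. Aquantile leaves the ratios as they are. No scaling moved the median of all genes beyond -0.04 to 0.01. Over the reference, 8 of 10 genes were above 1 on every array, or 7 with Agilent's processed signals or the series matrix. The ratios of Mag, Cldn19 and Drp2 then moved from 4.83 to 5.42, from 4.22 to 4.68 and from 6.55 to 7.47. With median centring the ratio of Prx fell from 4.45 to 4.03. With no background correction Mag and Drp2 rose to 5.01 and 6.91. The cause of these changes was not tested.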
